A study of Magallana angulata with 9 samples.

Results

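The genes described here are the 200 whose levels varied least over 9 RNA-seq libraries of Crassostrea angulata (Magallana angulata) D-larvae, the straight-hinged first shelled stage of the oyster. They were chosen from 7832 candidates. The candidates are the genes with a mean level of at least 20 CPM, 8032 genes in all, without the 200 genes that were most abundant in fresh larvae. The full table lists 28372 genes, of which 23052 passed a filter of at least 5 counts in at least 3 libraries. CPM is the estimated count of a gene as a share of its library's total, in parts per 1000000, after TMM normalization, a scaling between libraries that assumes that most genes do not change. Steadiness was measured by the coefficient of variation (CV), the SD of a gene's CPM over the 9 libraries divided by its mean. All 9 libraries entered the choice, so that the low spread of these genes over pools and treatments is a description of how they were picked and not a result.

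The 3 conditions had 3 libraries each. Cryopreserved larvae were equilibrated in cryoprotectant, frozen in straws and stored for 2 months in liquid nitrogen. They were then thawed for 10 s at 37 °C and given 1 h of recovery in seawater. CPA exposed larvae spent 3 min at 4 °C in the same cryoprotecting agents (CPAs), which were 10% dimethyl sulfoxide (DMSO), 1% polyvinylpyrrolidone (PVP) and 0.2 M sucrose, and were not frozen. Fresh larvae were concentrated in filtered seawater. All came from the same 3 larval pools, each obtained by crossing 3 females with 3 males, were 24 to 30 h old and were sampled as 30000 larvae per library. The replicate number of a library is its pool. Libraries were made from polyA RNA of whole larvae, and reads were aligned to the genome of a closely related species, Crassostrea gigas. Freezing, storage, thawing and the recovery bath came together in the Cryopreserved group and cannot be told apart. In whole larvae, fewer cells that express a gene and less RNA per cell cannot be told apart either.

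A reference gene is a gene whose transcript level is taken to be the same in every sample. In RT-qPCR the signal of a gene of interest is divided by that of 1 or more reference genes, so that differences in the amount of RNA and in the yield of reverse transcription cancel. A reference that moves with the treatment passes its own change on to every gene divided by it. For this reason candidates are usually judged over all treatments and biological replicates of the experiment in which they will be used, and several genes are averaged. Housekeeping genes for the cytoskeleton, glycolysis and the ribosome are common choices, and none of these is steady in every tissue or treatment.

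Genes are listed by number only, without names in the files, and 0 of the numbers matched the gene table used here. No function is therefore given for any gene, no marker of larval tissues could be set beside the labels, and no sequence is shown.

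The CV of the 200 genes ranged between 2.71% and 6.99%, with a median of 6.15%. A CV under 3% was found for 1 gene, under 4% for 4 genes, under 5% for 27 genes and under 6% for 85 genes. Over all candidates the median CV was 20.9%, the middle of the distribution lay between 14.4% and 31.8% (quartiles), and the highest value was 183%. A CV under 10% was reached by 713 candidates, or 9.10%. In a steady gene the highest of the 9 CPM values was between 1.08 and 1.31 times the lowest, with a median of 1.20 times, against a median of 1.86 times over all candidates. For 81 of the 200 genes every library lay within 10% of the gene's own mean.

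The edge of the group is not a natural border. Gene 105324266 and gene 105342127, the last 2 of the group by rank, had CVs of 6.986% and 6.992%. Gene 105340117 and gene 105343421, the next 2 in the ranking, had CVs of 6.995% and 7.011% and were left out. A CV estimated from 9 independent, normally distributed values has a relative standard error of about 25%, so that genes near the edge are exchangeable. The 9 libraries share pools and conditions and are not independent, so the value is only a rough guide. When each library was left out in turn, the CV of gene 105342127 moved between 5.50% and 7.65% and that of gene 105340117 between 6.38% and 7.49%.

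The steady genes had levels like those of the candidates. The mean level of the 200 genes ran from 20.1 to 427 CPM with a median of 49.4 CPM, and that of all candidates had a median of 49.7 CPM. When the candidates were cut at the quartiles of their mean level (30.8, 49.7 and 94.1 CPM), the classes held 41, 59, 56 and 44 of the steady genes in order of increasing level. The median CV of the candidates was 20.5% in the lowest of these classes and 22.6% in the highest. At 100 CPM or more stood 42 steady genes (21%) and 23.2% of the candidates. Genes outside the candidate range held few steady ones. Among the 200 abundant genes left out, which had at least 518 CPM on average in Fresh larvae, the median CV was 31.6% and 1 gene had a CV no higher than the highest of the group. Among the 15020 genes under 20 CPM there were 38 such genes. Counting error is larger at these lower levels, and its part in this number was not tested.

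**Figure D1:**
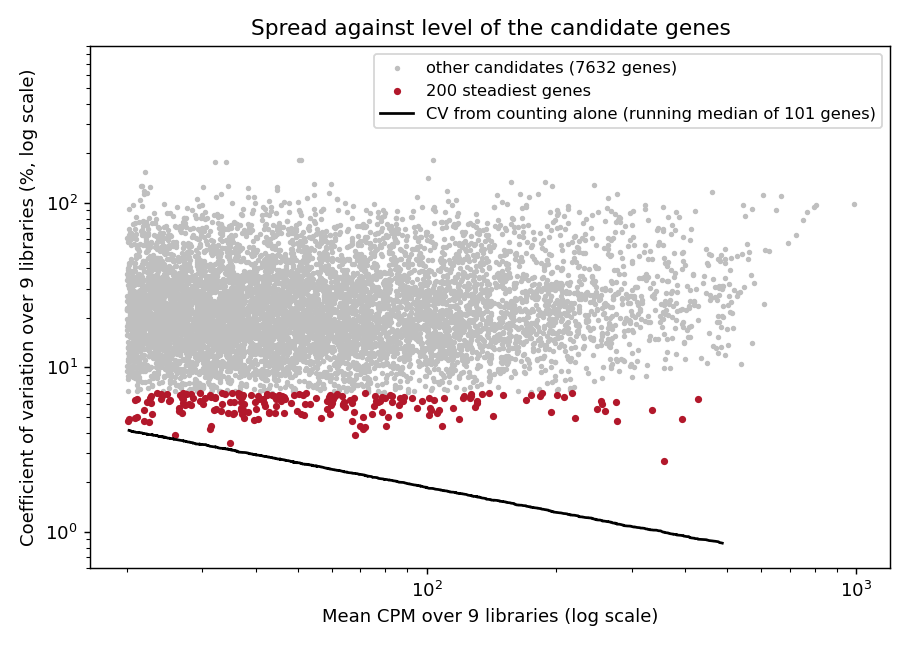
Each point is a candidate gene, with its mean CPM over 9 libraries on the horizontal axis (log scale) and its coefficient of variation in percent on the vertical axis (log scale). Red points are the 200 steadiest genes, grey points the other candidates, and the black line is the running median of the CV that counting error alone would give. The red points lie between 2.71% and 6.99% at all levels up to 427 CPM, and at the low end they come close to the line.

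Counting error adds to every CV. The counts of the steady genes ran from 373 to 23460 in a library, and library totals ran from 22367780 to 45990672 counts, the smallest being those of Cryopreserved larvae. Poisson counting alone would give these genes a CV between 0.897% and 4.16%, with a median of 2.65%. It accounts for a median of 19.3% of their variance, against 1.45% for all candidates, and for more than 50% of the variance of 12 steady genes. Reads are not independent molecules, and these values cover counting error only.

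The steadiest gene of all was 105343475. Its level was 353, 369 and 357 CPM in Cryopreserved larvae 1 to 3, 360.5, 366 and 354 CPM in CPA exposed larvae, and 346, 368 and 341 CPM in Fresh larvae. The averages were 359 ± 8.39 CPM in Cryopreserved larvae, 360.3 ± 6.23 CPM in CPA exposed larvae and 352 ± 14.0 CPM in Fresh larvae (SD, n = 3 each). All 3 groups overlapped. In each condition pool 2 was the highest, and differences between pools made up 66.6% of the little variance on the log2 scale, against 19.0% between conditions. The gene rested on 7304 to 18164 counts per library, and its CV was 2.71%, or between 2.22% and 2.89% with any 1 library left out.

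Gene 105342589 came next, at a lower level. It had 34.0, 36.5 and 34.9 CPM in Cryopreserved larvae, 35.0, 36.2 and 35.4 CPM in CPA exposed larvae, and 32.7, 35.2 and 33.6 CPM in Fresh larvae, with a CV of 3.49%. The groups overlapped, and pool 2 was again the highest in each condition. Counting error enters these small differences, since the gene rested on 724 to 1816 counts per library. The ratio of the estimated counts of 105343475 to those of 105342589, which no scaling between libraries can alter, was 10.4, 10.1 and 10.2 in Cryopreserved larvae, 10.3, 10.1 and 10.0 in CPA exposed larvae and 10.6, 10.4 and 10.1 in Fresh larvae. The SD of this ratio on the log2 scale was 0.026 over the 9 libraries, the smallest among the 10 pairs of the 5 steadiest genes, whose median was 0.070. Both genes were picked on these same libraries, and counting error in each of them enters the SD of 0.026, so it does not measure how constant the ratio is in other larvae. A pair drawn from all 200 genes had a median of 0.12, and a pair of candidates had a median of 0.48.

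Gene 105335216 (CV 3.87%) had 72.5, 71.1 and 69.6 CPM in Cryopreserved larvae, 65.0, 65.3 and 66.4 CPM in CPA exposed larvae, and 68.9, 67.8 and 66.0 CPM in Fresh larvae. All Cryopreserved libraries were above all of the other libraries, although by little. The averages were 71.1 ± 1.47 CPM in Cryopreserved larvae, 65.6 ± 0.748 CPM in CPA exposed larvae and 67.6 ± 1.45 CPM in Fresh larvae (SD, n = 3 each). Of its small variance 82.8% lay between conditions and 5.51% between pools, whereas pools held the larger part in the genes described above.

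Gene 105341254 (CV 3.88%) had 23.9, 25.4 and 25.3 CPM in Cryopreserved larvae, 26.5, 25.4 and 26.1 CPM in CPA exposed larvae, and 27.0, 27.2 and 25.8 CPM in Fresh larvae. Here the Cryopreserved libraries were all below the Fresh libraries, while CPA exposed larvae overlapped with both. Its CV expected from counting alone was 3.65%, so that most of its spread was at the level of counting error. Gene 105317874 (CV 4.19%) had 29.3, 32.1 and 30.2 CPM in Cryopreserved larvae, 32.8, 31.6 and 32.5 CPM in CPA exposed larvae, and 29.4, 31.0 and 32.2 CPM in Fresh larvae, and all 3 groups overlapped.

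**Figure D2:**
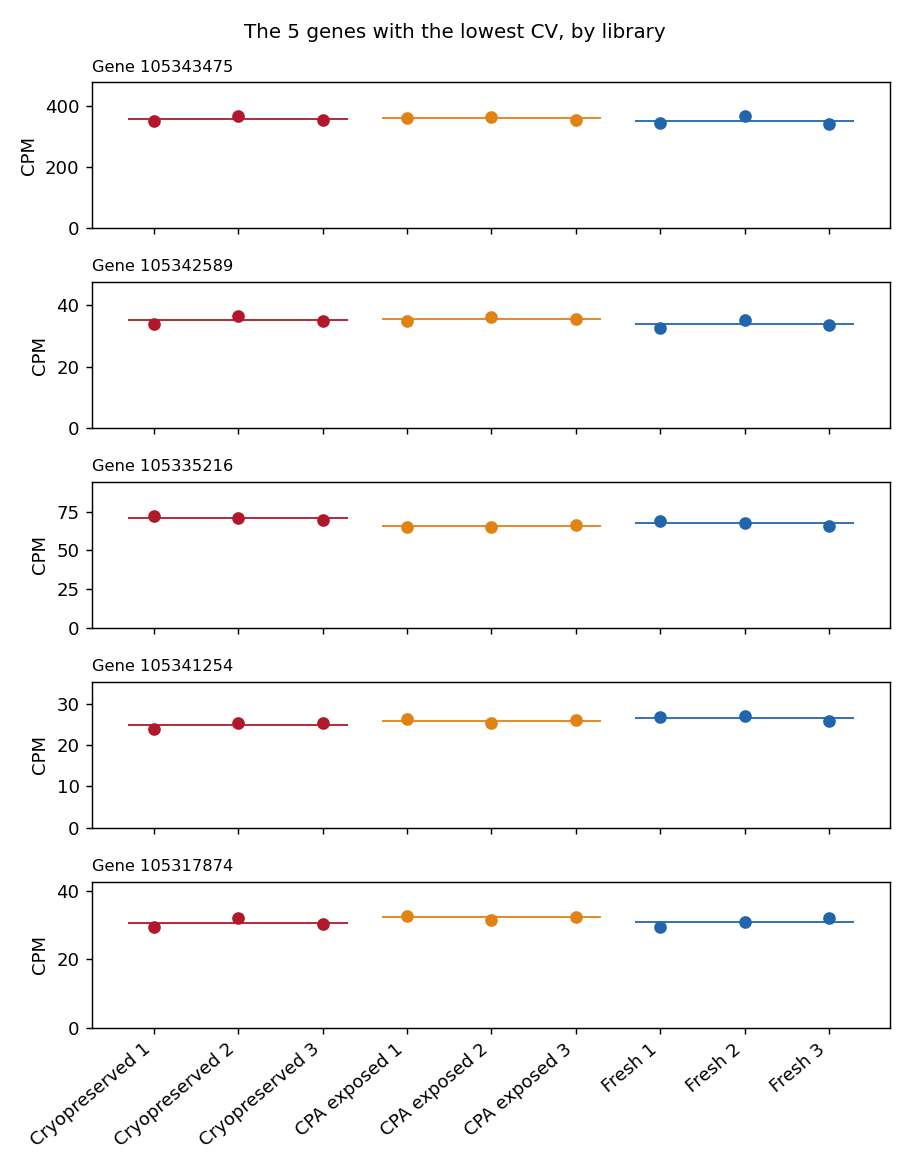
CPM of the 5 genes with the lowest coefficient of variation, with 1 panel per gene and 1 point per library. The vertical axis of each panel starts at 0, horizontal lines are the means of 3 libraries, and colours mark Cryopreserved (red), CPA exposed (orange) and Fresh (blue) larvae. Gene 105343475 stays between 341 and 369 CPM, and gene 105335216 shows all Cryopreserved libraries above the others.

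Averaging reduced the spread further. The geometric mean of the 5 steadiest genes was 57.2, 60.1 and 58.1 CPM in Cryopreserved larvae, 59.0, 58.7 and 58.8 CPM in CPA exposed larvae, and 57.3, 59.4 and 57.5 CPM in Fresh larvae. The highest library was 1.05 times the lowest, and the CV of this mean was 1.68%. The mean of the 3 steadiest genes had a CV of 2.32%. The genes were chosen on these same libraries, so that the values are a description of the set and not an estimate of its error in other larvae.

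The highest and the lowest levels in the group differed in what varied. Gene 105326211, the most abundant of the 200, had 397, 419 and 458 CPM in Cryopreserved larvae, 392, 427 and 451 CPM in CPA exposed larvae, and 395, 449 and 455 CPM in Fresh larvae (CV 6.43%). Pool 1 was the lowest and pool 3 the highest in all 3 conditions, and pools held 91.7% of its variance and conditions 2.68%. Gene 105328708 (CV 4.86%) had 404, 408 and 382 CPM in Cryopreserved larvae, 395, 370.3 and 394 CPM in CPA exposed larvae, and 424, 364 and 403 CPM in Fresh larvae, with all groups overlapping. The remaining gene of the 3 most abundant was 105343475, described above.

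At the low end, gene 105332560 (CV 4.72%) had 21.3, 20.6 and 20.6 CPM in Cryopreserved larvae, 20.9, 20.7 and 19.2 CPM in CPA exposed larvae, and 19.5, 18.4 and 19.6 CPM in Fresh larvae. The Cryopreserved libraries were all above the Fresh libraries. Counting error is largest at these low levels, and it alone gave a CV of up to 4.16% in the group. Gene 105317623 (CV 4.85%) had 20.5, 18.8 and 19.0 CPM in Cryopreserved larvae, 19.9, 21.7 and 19.9 CPM in CPA exposed larvae, and 20.1, 20.6 and 21.5 CPM in Fresh larvae. Its Cryopreserved and Fresh libraries overlapped, as did those of gene 105343371 (CV 6.35%), which had 19.7, 21.4 and 20.4 CPM in Cryopreserved larvae, 18.9, 22.0 and 22.0 CPM in CPA exposed larvae, and 19.2, 21.8 and 22.2 CPM in Fresh larvae. In the last gene pool 1 was the lowest in each condition, and pools held 82.9% of the variance.

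The remaining variation of the group was divided between conditions, pools and what neither of them held, from the sums of squares of log2 CPM. Summed over the 200 genes, conditions held 26.6%, pools 35.3% and neither 38.0%. Over all candidates conditions held 51.8%, pools 37.6% and neither 10.6%. Conditions were the largest of these parts in 45 steady genes (22.5%), pools in 75 (37.5%) and neither in 80 (40%), against 39.6%, 48.8% and 11.5% of the candidates. Since the choice removed genes with a large difference of any kind, these shares describe what was left.

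The libraries of the Cryopreserved group were the ones in which steady genes strayed farthest. A Cryopreserved library was the farthest from the gene's own mean in 92 of the 200 genes (46%), a CPA exposed library in 66 (33%) and a Fresh library in 42 (21%). The corresponding shares of the candidates were 63.9%, 23.0% and 13.1%. Cryopreserved 1 alone was the farthest library in 37 steady genes. Between replicates of a condition, the median CV of the steady genes was 6.13% in Cryopreserved, 5.07% in CPA exposed and 4.62% in Fresh larvae, against 18.4%, 17.1% and 15.0% for the candidates. No single value of a steady gene lay farther than 0.26 from its mean on the log2 scale. Cryopreserved libraries also had fewer counts (22367780 to 24440543) than CPA exposed (33643297 to 45990672) and Fresh libraries (24482043 to 45051399), and the part of depth in this order was not tested.

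**Figure D3:**
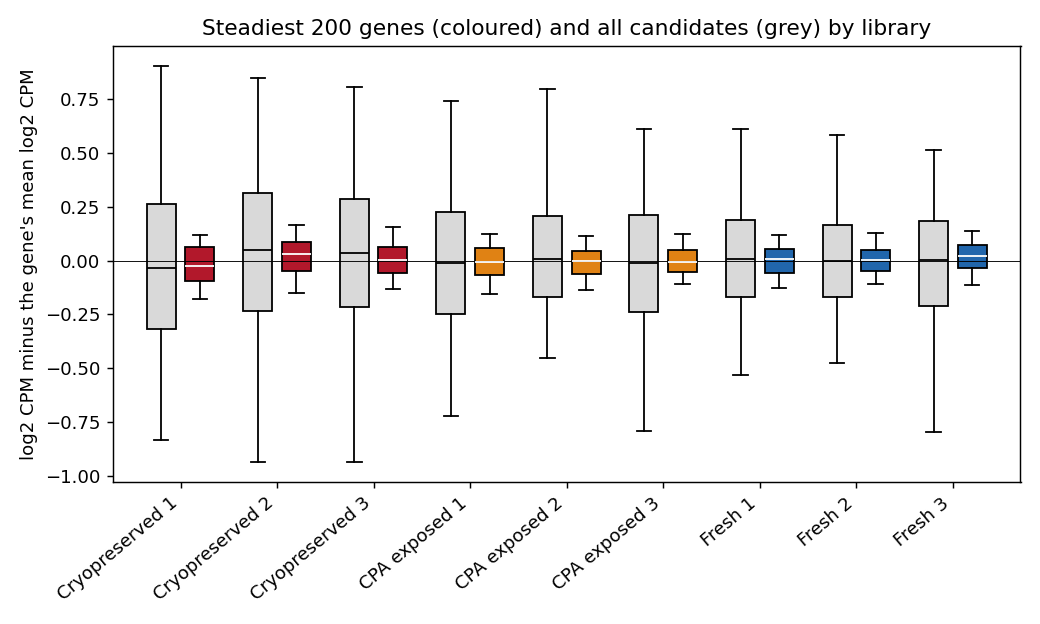
Difference between a gene's log2 CPM in a library and its mean log2 CPM over the 9 libraries, with the libraries on the horizontal axis. Coloured boxes are the 200 steadiest genes and grey boxes all candidates, boxes span the quartiles with the median as a line, and whiskers span the 5th to the 95th percentile. The coloured boxes stay close to 0 in all libraries, and the grey boxes are widest in Cryopreserved larvae.

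For each pool, the 3 conditions were then set side by side. Between Cryopreserved and Fresh larvae the median absolute log2 difference of the steady genes was 0.08 in each of the 3 pools, against 0.39, 0.27 and 0.28 for the candidates in pools 1, 2 and 3. Between CPA exposed and Fresh larvae it was 0.06, 0.07 and 0.05, against 0.11, 0.11 and 0.09 for the candidates. Between Cryopreserved and CPA exposed larvae it was 0.11, 0.09 and 0.07, against 0.43, 0.28 and 0.29. A smaller share of the steady genes than of the candidates moved the same way in every pool. Between Cryopreserved and Fresh larvae 27 were higher and 31 lower in all 3 pools, together 29% of the group, against 57.6% of the candidates. Between CPA exposed and Fresh larvae these were 31 higher and 36 lower genes (33.5%, against 44.4% of the candidates), and between Cryopreserved and CPA exposed larvae 36 higher and 27 lower genes (31.5%, against 59.9%). The comparisons share libraries and are not independent of each other. The choice for low spread over these same libraries enters all of these values, so they describe the group and are not a result about it.

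Differential expression was computed over all 23052 genes with edgeR's quasi-likelihood test, in which a gene was called at a Benjamini-Hochberg adjusted p under 0.05. Between Cryopreserved and Fresh larvae 0 of the 200 steady genes were called, while the share called over all genes tested was 5.63% (1297 genes). Between Cryopreserved and CPA exposed larvae 0 steady genes were called, against 7.57% of all genes (1744 genes). Between CPA exposed and Fresh larvae 0 steady genes and 0 of all genes (0%) were called. At an unadjusted p under 0.05 the edgeR count of steady genes was also 0 in all 3 comparisons, where 18.8%, 21.2% and 0.282% of all genes passed in the same order. DESeq2 called 0 steady genes in each, while it called 11.3%, 14.3% and 0.00868% of all genes. At an unadjusted p under 0.05 in DESeq2 there were 3 steady genes between Cryopreserved and CPA exposed larvae and 0 in the other comparisons. With the pool as a block in edgeR the steady genes stayed at 0, although the share of all genes called was then 21.6% for Cryopreserved against Fresh larvae, 25.4% for Cryopreserved against CPA exposed larvae and 0% for CPA exposed against Fresh larvae. These comparisons use the libraries on which the group was chosen, so nothing about the group is read from the counts of 0.

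The fitted log2 fold changes of the 200 genes lay between -0.17 and 0.17 between Cryopreserved and Fresh larvae, between -0.18 and 0.21 between Cryopreserved and CPA exposed larvae, and between -0.16 and 0.16 between CPA exposed and Fresh larvae. Their median absolute values were 0.05, 0.07 and 0.05. Over all genes tested these medians were 0.34, 0.36 and 0.12. Groups of 3 libraries that did not overlap occurred in steady genes as well. Between Cryopreserved and Fresh larvae, 12 steady genes had all Cryopreserved libraries above all Fresh libraries and 13 had them below, together 12.5% of the group. Groups without overlap were found in 23.6% of all genes tested and in 30.7% of the candidates. Between Cryopreserved and CPA exposed larvae there were 16 above and 13 below (14.5%, against 24.8% of all genes and 32.0% of the candidates). Between CPA exposed and Fresh larvae there were 6 above and 8 below (7%, against 3.40% of all genes and 3.49% of the candidates). The choice for low spread enters these fold changes and overlaps as well, so nothing about the group is read from them.

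Whether the choice carries over to larvae that were not used for it was examined by leaving out a pool. The same rule was applied to the 6 libraries of a pair of pools, and the CV of the 200 genes chosen was measured in the 3 libraries of the pool left out. When pool 1 was left out, the chosen genes had a median CV of 4.52% in the libraries used and 9.08% in the libraries left out, where all candidates had a median of 16.9%. When pool 2 was left out, these values were 4.56% and 7.93%, against 12.6% for the candidates. When pool 3 was left out, they were 4.92% and 6.30%, against 12.5%. In the pool left out, the spread was thus smaller than that of a typical candidate in each of the 3 turns. It was larger than in the libraries used, but these CVs are unlike measures. The first is over 6 libraries of 2 pools, and the second over 3 libraries of 1 pool, scaled on their own. The second holds no differences between pools, so it cannot show whether steadiness between pools carries over to other larvae.

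Of the 200 genes chosen, 167, 169 and 175 were below the candidates' median CV when pools 1, 2 and 3 were left out. The steadiest 10% of the candidates in the pool left out held 43, 40 and 48 of them, and the most variable 10% held 1, 0 and 0. Of the 200 steady genes of all 9 libraries, 88, 86 and 84 were chosen again. Chosen whichever pool was left out were 18 genes, with CVs from 2.71% to 5.52% and mean levels from 21.1 to 357 CPM, which include all 5 genes shown above. Another 27 genes of the group were not chosen in any of the 3 turns.

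**Figure D4:**
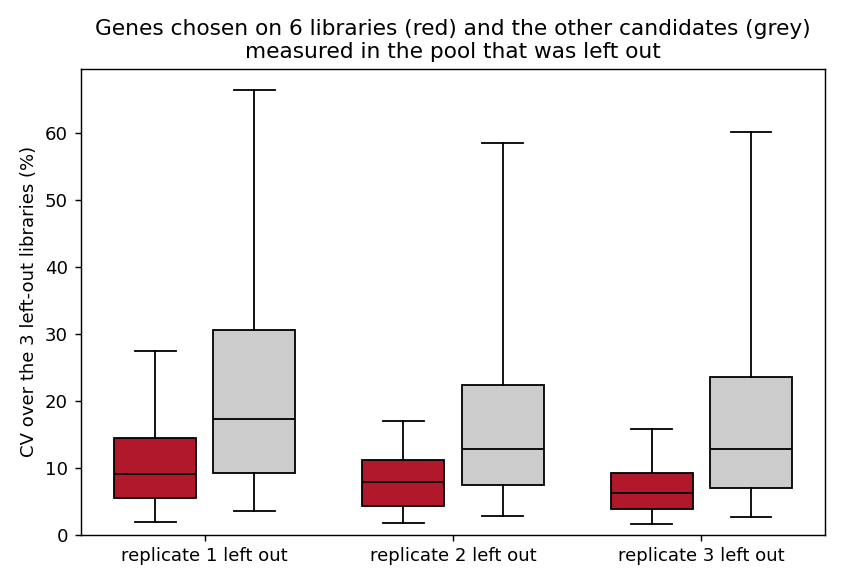
Coefficient of variation in percent over the 3 libraries of the pool left out, for the 200 genes chosen on the other 6 libraries (red) and for the other candidates (grey). Boxes span the quartiles with the median as a line, and whiskers span the 5th to the 95th percentile. The red medians are 9.08%, 7.93% and 6.30% when replicates 1, 2 and 3 were left out, below the grey medians in each turn.

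The highest spread in a pool left out was a CV of 93.4%, for gene 105332848 in pool 1. The gene was singled out after its values were seen. It had a CV of 3.70% in pools 2 and 3. Its level was 24.9, 27.8 and 29.4 CPM in Cryopreserved larvae, 5.32, 30.2 and 30.0 CPM in CPA exposed larvae, and 5.68, 29.0 and 27.7 CPM in Fresh larvae. CPA exposed 1 and Fresh 1 were low, and Cryopreserved 1, from the same pool, was close to the other pools. With pool 1 left out it was among the 200 steadiest genes, and over all 9 libraries its CV was 43.9%. When pools 2 and 3 were left out, the highest values were 25.0% and 35.1%.

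Leaving out the Cryopreserved condition kept fewer genes than leaving out a pool. With the 3 Cryopreserved libraries set aside, the rule applied to CPA exposed and Fresh larvae gave 200 genes with a CV of at most 4.58%, of which 63 belong to the steady group of all 9 libraries. In the Cryopreserved libraries, 25 of these 200 genes (12.5%) differed by more than 0.5 on the log2 scale from their mean in the libraries used, against 26.7% of the candidates. Their median absolute difference was 0.16, against 0.29 for the candidates. Between Cryopreserved and Fresh larvae edgeR called 15 of them (7.5%), against 9.41% of the candidates and 5.63% of all genes tested. With the pool as a block it called 49 (24.5%), against 28.0% of the candidates and 21.6% of all genes tested. The differences between these shares were not tested, and a low spread in the libraries used to choose also enters the error of the fit. With the CPA exposed libraries set aside, 0 of the 200 genes chosen differed by more than 0.5, against 12.8% of the candidates. The median absolute difference was 0.07 for the chosen genes and 0.17 for the candidates, and 131 of the chosen genes belong to the steady group. The mean used here includes Cryopreserved larvae, so the candidates' values also hold their changes after cryopreservation. Set directly against Fresh larvae, CPA exposed larvae had a median absolute log2 fold change of 0.08 over the candidates of all 9 libraries (edgeR).

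The largest differences among the genes chosen without the Cryopreserved libraries show what such a choice can miss, and both were singled out after their values were seen. Gene 105342949 had 137, 88.2 and 145 CPM in Cryopreserved larvae, 45.5, 49.2 and 42.9 CPM in CPA exposed larvae, and 48.1, 45.8 and 45.6 CPM in Fresh larvae. All Cryopreserved libraries were above the others, with a log2 fold change over Fresh larvae of 1.41 (edgeR, adjusted p = 0.0066). Gene 105343585 had 93.0, 103 and 97.3 CPM in Cryopreserved larvae, 161, 160.0 and 149.8 CPM in CPA exposed larvae, and 166, 150.3 and 154 CPM in Fresh larvae. All Cryopreserved libraries were below the others, with a log2 fold change over Fresh larvae of -0.68 (edgeR, adjusted p = 0.0195). The CVs of these genes were 4.42% and 3.97% without the Cryopreserved libraries and 57.9% and 21.9% with them. When only the 3 Fresh libraries were used to choose, 30 of the steady group were found again. The genes so chosen had a median CV of 12.7% in Cryopreserved larvae, against 18.2% for the candidates, and of 7.57% in CPA exposed larvae, against 17.0%.

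Of the scalings between libraries that were tried, other factors kept most of the group, with 178 of the 200 genes under RLE and 165 under upper quartile factors, and library totals alone did not. The 200 abundant genes left out made up 24.8% to 34.7% of a library's counts, highest in Cryopreserved 2 and lowest in Fresh 3. TMM factors ran from 0.868 to 0.969 in Cryopreserved, from 0.958 to 1.12 in CPA exposed and from 0.985 to 1.14 in Fresh larvae. With CPM from library totals alone, the median CV of the 200 steady genes was 10.3%. On that scale the median steady gene stood at 0.887 times its own mean in Cryopreserved 2 and at 1.16 times in Fresh 3. Ranked anew on that scale, 38 of the 200 genes remained among the 200 steadiest. After TMM scaling the summed level of the 200 genes was 14964 ± 116 CPM in Cryopreserved, 14865 ± 100.4 CPM in CPA exposed and 14972 ± 135 CPM in Fresh larvae (SD, n = 3 each), and the highest library was 1.03 times the lowest.

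A measure in which the scaling factors of the libraries cancel was added after the data had been seen. Genes are ranked in it by the mean SD of their log2 ratios to all candidates. The candidates as a whole thus serve as the reference. Like TMM, the measure favours genes that follow most others, so its overlaps do not decide between the scalings. Of the 200 genes with the lowest values, 163 were in the TMM group and 50 in the group from library totals, and genes 105343475 and 105342589 were at ranks 1 and 2. Pairs within the TMM group had a median SD of the log2 ratio of 0.12, and pairs within the group from library totals 0.13.

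**Figure D5:**
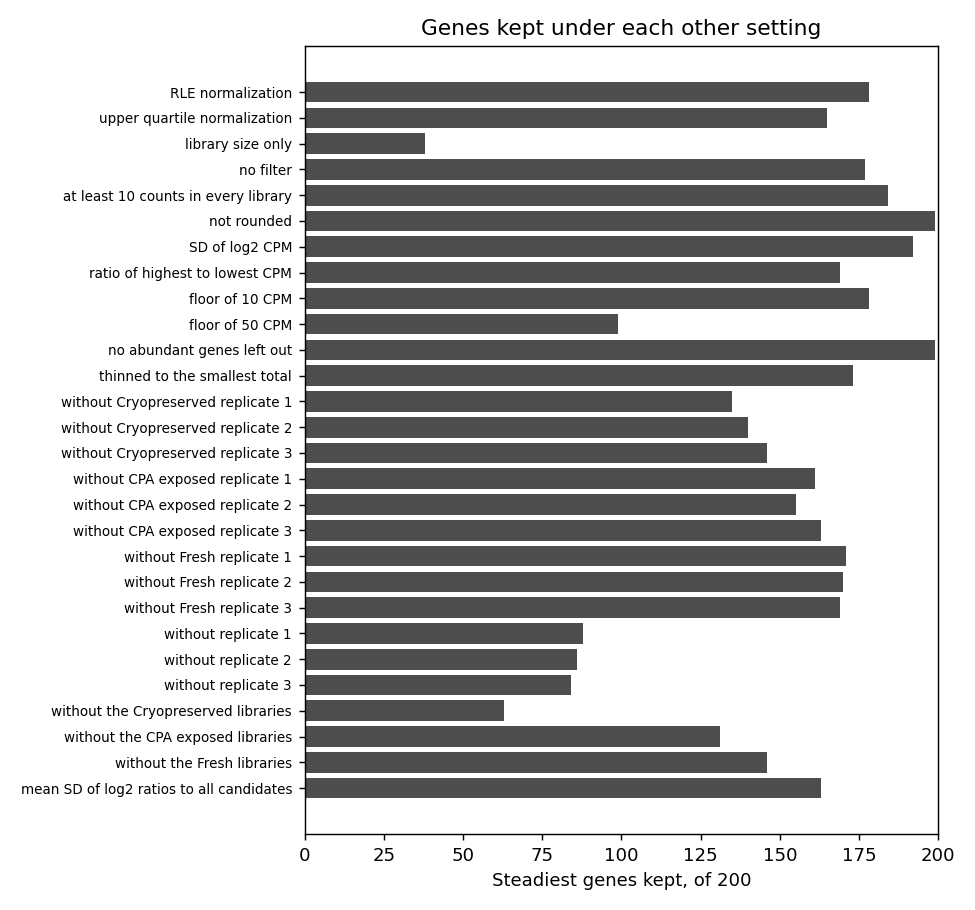
Number of the 200 steadiest genes that were again among the 200 genes chosen (horizontal axis, 0 to 200) when a single choice in the processing was changed or libraries were left out (1 bar per setting). The shortest bars are library size only with 38 genes and the choice without the Cryopreserved libraries with 63, and leaving out a single library keeps 135 to 171 genes.

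Few other properties are given in the files. Not whole numbers, as estimated counts are when reads are shared between transcripts or genes, were 64.4% of the values of the steady genes and 65.7% of those of the candidates. In 31 steady genes all 9 values were not whole, and in 0 all 9 were whole (0.779% of the candidates). Where reads were shared between near-identical copies, the level of a gene depends on how they were divided, which was not measured here. All but 1 of the 200 gene numbers began with 105, and the 1 that began with 109 made up 0.5% of the group, against 0.702% of the candidates and 6.51% of all listed genes. In these properties the steady genes were close to the candidates from which they came.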

How the data were processed

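RNA was measured in 9 libraries of D-larvae, grouped by treatment and replicate number from the labels. Reads were filtered and aligned to the C. gigas genome, and the authors deposited gene-level estimated counts made with Salmon 1.1 (the submitters' processing notes give the version), neither normalized nor filtered. These were rounded to whole numbers. Columns were assigned to samples by the column numbers in the labels, and no other column was used. A gene was kept when 3 or more libraries held 5 or more counts of it, and TMM factors were computed from them in edgeR 4.0.16 (R 4.3.3, with limma 3.58.1). Values under 0.1 CPM were set to 0.1 CPM before log2 values were taken.

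The quasi-likelihood test was fitted over all 9 libraries with condition as the factor and a prior count of 0.125 for fold changes, after the filter and the adjusted p threshold of 0.05 of the study's methods. DESeq2 1.42.0, other scalings, filters, floors and measures, the pool as a block, and leaving out libraries, pools and conditions were alternatives. Genes named are the 5 steadiest, the 3 most and the 3 least abundant, and those just inside and just outside the edge of the group. Genes named outside this rule are said to be so where they appear. The members and the rules were chosen with earlier results of these data known. Scripts were tested on simulated data.

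The numbers pair the samples, since the study's methods state that each pool was exposed to all conditions. After subtraction of the group means, the 9 pairs of libraries with the same number had a mean r of 0.706 (0.468 to 0.917), and the 18 pairs with different numbers a mean r of -0.352. The subtraction by itself makes the latter value negative when the former is positive, so the latter is not separate evidence of pairing. A chi-square test of the libraries' counts separated all replicates, with 72.8 to 191 per degree of freedom, so that none was a repeated deposit. The pools are larvae of 3 sets of parents, and p-values of the fits on condition alone measure the spread between these pools. With the pool as a block, p-values measure the spread that is left after differences between pools are taken out.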

Additional observations from a re-analysis of the deposited data

How the results depend on the processing

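Of the 200 steady genes, 38 remained with library size only, 99 with a floor of 50 CPM, where 99 of the 200 have a mean of at least 50 CPM and all of these were kept, 63 without the Cryopreserved libraries, 131 without the CPA exposed libraries, 84 to 88 without the libraries of a pool and 135 to 171 without a single library. Apart from the floor, the cause was not tested. Every other setting kept 146 (without the Fresh libraries) or more.

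With the replicate block 0 steady genes were called in any comparison, and the same count of 0 came from all 17 alternatives in each comparison. The group was chosen for low spread over these same libraries, so nothing about it is read from these counts of 0. Over all genes, calls between Cryopreserved and Fresh larvae numbered 1297 in edgeR, 4971 with the block, 2615 in DESeq2 and 5478 in DESeq2 with the block. Between Cryopreserved and CPA exposed larvae these were 1744, 5854, 3285 and 6212, and between CPA exposed and Fresh larvae 0, 0, 2 and 7. The edgeR count of 1297 was 823 without Cryopreserved 1, 697 without Cryopreserved 3, and 454, 515 and 496 without Fresh 1, 2 and 3. The count of 1744 was 1137 without Cryopreserved 1, and 813, 1023 and 1048 without CPA exposed 1, 2 and 3.

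Scaling by library size alone turned 701 higher and 596 lower genes between Cryopreserved and Fresh larvae into 292 and 794, and 900 and 844 between Cryopreserved and CPA exposed larvae into 500 and 995. On that scale the typical gene had a log2 fold change of -0.20 and -0.13 (medians).

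The main limits are 3 pools, counting error, which made up more than 50% of the variance of 12 of the 200 genes, reads aligned to another species, and a scaling that assumes that most genes do not change. An absolute amount of RNA per larva was not measured.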
